A study of Mus musculus with 6 samples.

Results

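Glucocorticoid signalling was examined through 10 genes: the receptor genes Nr3c1 and Nr3c2, the enzyme gene Hsd11b1, and 7 genes that glucocorticoids are known to regulate (Fkbp5, Tsc22d3, Sgk1, Zbtb16, Map3k6, Cdkn1a and Plin4). The 10 genes were taken by symbol from the 32067 features of the deposited table, and all 10 were among the 18629 features with enough counts to test. They were chosen by symbol but selected on earlier knowledge of their CPM and fold changes between the same 2 diets, so these differences are a description and not evidence. Poly(A) RNA was sequenced from hippocampus of wild type female C57BL/6J mice, all ovariectomised and aged 17 weeks. The ovaries are the main source of estrogen in blood, and ovariectomy takes them out. Control food was given to the 3 OVX mice, and food with 1% royal jelly, a honeybee secretion, to the 3 OVX+RJ mice from 8 weeks of age. Mice with intact ovaries are not analysed here, so every value below belongs to an animal without ovaries.

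Corticosterone, the main glucocorticoid of mice, crosses into the brain and binds a pair of nuclear receptors. The mineralocorticoid receptor, encoded by Nr3c2, binds it tightly and is abundant in hippocampal neurons. The glucocorticoid receptor, encoded by Nr3c1, binds it less tightly and is engaged at the daily peak and under stress. Both receptors bind the same DNA element. The hippocampus is one of the brain regions richest in both, and takes part in the feedback that ends the hormonal stress response.

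The libraries held between 34718611 and 58163796 counts. Values are CPM, counts scaled to a total of 1000000 over all features of the table. The library OVX+RJ 1 stood apart, with a mean Pearson correlation across genes of 0.983 with the other libraries, against 0.986 to 0.987 for the rest. Many of the results below are therefore also given without it. All 89 markers looked for, in 13 lists of hippocampal and neighbouring cell types, were detected, and the summed CPM of excitatory neuron markers lay between 6380 and 7170.

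Of the 10 genes, 2 had higher values in every OVX+RJ library than in any OVX library (Sgk1 and Cdkn1a), and 3 had lower ones (Zbtb16, Map3k6 and Fkbp5). Over all tested features, the groups did not overlap at 4.53% on the higher side and 5.95% on the lower side, or 10.5% in all. Since the same contrast was in view when the genes were picked, nothing is read from that count. In edgeR's quasi-likelihood test, adjusted by Benjamini-Hochberg over all 18629 features at a threshold of 0.05, none of the 10 passed, and 0% of features did. At an unadjusted p under 0.05 there were 754 features, or 4.05%, and 4 of the 10 genes. The median log2 fold change of the 10 genes was -0.032, with 4 positive and 6 negative, beside a median of -0.0015 over all tested features, of which 49.6% were positive and 50.4% negative. The libraries are bulk tissue, so fewer cells of a type and less RNA per cell cannot be told apart.

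**Figure D1:**
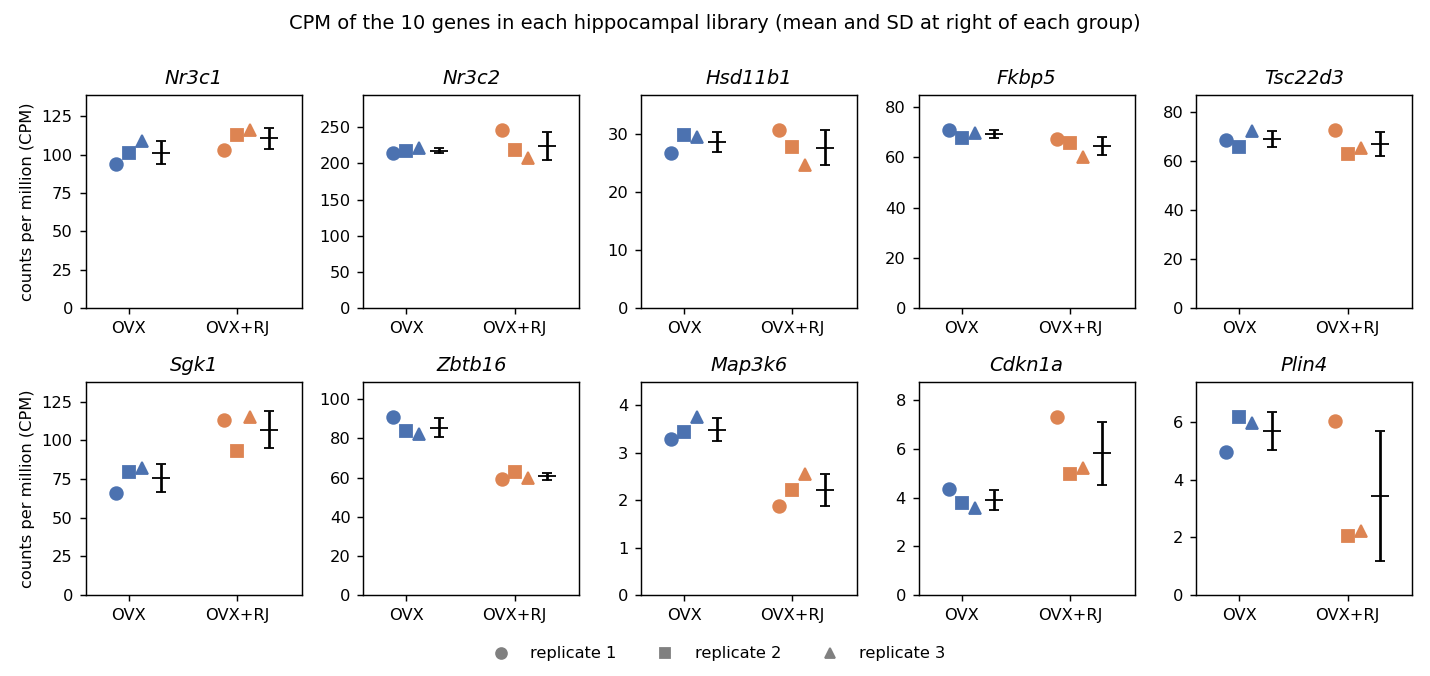
CPM of the 10 genes (vertical axes, starting at 0) in the 3 OVX and 3 OVX+RJ libraries, with a marker shape for each replicate number and the mean and SD at the right of each group. The 3 Zbtb16 points of OVX+RJ lie between 59.3 and 62.6 CPM, all under the OVX points, while Plin4 in OVX+RJ 1 sits at 6.03 CPM among the OVX values.

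The glucocorticoid receptor gene Nr3c1 was at 94.0, 101 and 109 CPM in OVX 1, 2 and 3, against 103, 113 and 116 CPM in OVX+RJ 1, 2 and 3. The groups overlapped through OVX+RJ 1, which lay under OVX 3. The means were 101 ± 7.33 and 111 ± 6.86 CPM (SD, n = 3 each). The log2 fold change was 0.14 (SE 0.072), and lay between 0.082 and 0.20 with each library left out in turn. The mineralocorticoid receptor gene Nr3c2 was at 215, 217 and 221 CPM in the OVX libraries and 246, 219 and 208 CPM in the OVX+RJ libraries. The OVX libraries were nearly alike, with a coefficient of variation of 1.38% where counting alone gives 1.02%, and the OVX+RJ libraries lay on both sides of them. Its log2 fold change was 0.058 (SE 0.072), and -0.026 without OVX+RJ 1.

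The balance between the receptors was compared within each library, where scaling between libraries plays no part. Per Nr3c1 count there were 2.29, 2.14 and 2.03 Nr3c2 counts in OVX 1, 2 and 3, against 2.39, 1.93 and 1.80 in the OVX+RJ libraries in that order. OVX+RJ 1 had the highest ratio of the 6 libraries, and OVX+RJ 2 and 3 the lowest. The group means were 2.15 ± 0.128 and 2.04 ± 0.312 (SD, n = 3 each), which overlap, with a difference of -0.086 in the mean log2 ratio. That difference was -0.21 without OVX+RJ 1 and 0.00037 without OVX+RJ 3. With 3 libraries a group the smallest two-sided exact permutation p is 0.1, so none is given.

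**Figure D2:**
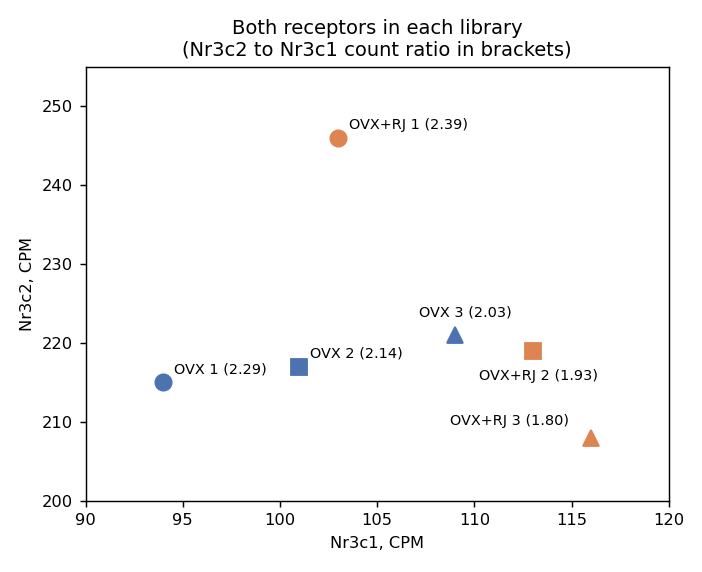
CPM of Nr3c1 (horizontal axis) and Nr3c2 (vertical axis) in each library, neither axis starting at 0, with the ratio of their counts in brackets. OVX+RJ 1 stands above the others at 246 CPM of Nr3c2, and OVX+RJ 3 has the highest Nr3c1, 116 CPM, with the lowest Nr3c2, 208 CPM.

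Levels of different genes were compared per kilobase of exon, as CPM per kb. Nr3c2 had the highest level of the 10 genes in both groups, at 33.6 ± 0.464 CPM per kb in OVX and 34.7 ± 3.01 in OVX+RJ (SD, n = 3 each). In OVX, Zbtb16 (16.2 ± 0.882), Tsc22d3 (15.9 ± 0.76) and Sgk1 (15.5 ± 1.81 CPM per kb) came next and did not differ beyond their spread, followed by Nr3c1 at 13.2 ± 0.954, which overlapped Sgk1. In OVX+RJ, Sgk1 was second in every library, at 21.8 ± 2.48 CPM per kb, ahead of Tsc22d3 at 15.4 ± 1.15 and Nr3c1 at 14.4 ± 0.893, which overlapped each other. Zbtb16, at 11.5 ± 0.338 CPM per kb, was under Nr3c1 in each OVX+RJ library. Fkbp5 and Hsd11b1 lay between 5.78 and 7.47 CPM per kb in all libraries, with Fkbp5 above Hsd11b1 in OVX and the pair overlapping in OVX+RJ. Cdkn1a, Plin4 and Map3k6 were the lowest, with group means from 0.48 to 1.64 CPM per kb. Cdkn1a and Plin4 overlapped in OVX, and Plin4 and Map3k6 in OVX+RJ.

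Hsd11b1 encodes the enzyme that regenerates active corticosterone from its inactive keto form inside cells. It was at 26.7, 29.9 and 29.5 CPM in the OVX libraries and 30.7, 27.8 and 24.6 CPM in the OVX+RJ libraries. The highest and the lowest library were both in OVX+RJ, and the groups overlapped. The log2 fold change was -0.039 (SE 0.105), with a 95% interval from -0.27 to 0.19, and was -0.13 without OVX+RJ 1 and 0.046 without OVX+RJ 3. Hsd11b2, whose product does the reverse reaction, had 5 counts in OVX 1, 5 in OVX+RJ 1 and 0 in the other 4 libraries, too few to test. H6pd, which supplies the cofactor of the Hsd11b1 enzyme, had a log2 fold change of -0.13 (SE 0.168).

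Fkbp5 and Tsc22d3 are among the genes most often used to read glucocorticoid receptor activity. Fkbp5 encodes a cochaperone that lowers the receptor's affinity for its hormone, and it was at 70.8, 67.6 and 69.7 CPM in the OVX libraries and 67.4, 65.7 and 60.3 CPM in the OVX+RJ libraries. The groups were separated by 0.264 CPM, and with edgeR's trimmed-mean (TMM) factors they overlapped, with OVX 2 at 67.6 and OVX+RJ 1 at 69.0 CPM. The log2 fold change was -0.093 (SE 0.071), with a 95% interval from -0.25 to 0.064. Tsc22d3, which encodes the leucine zipper protein GILZ, was at 68.4, 65.8 and 72.3 CPM in the OVX libraries and 72.6, 63.0 and 65.5 CPM in the OVX+RJ libraries. The groups overlapped, and the log2 fold change of -0.026 (SE 0.080) had a 95% interval from -0.20 to 0.15. Its sign turned when OVX 3 or OVX+RJ 2 was left out, to 0.017 and 0.024, and without OVX+RJ 1 it was -0.099.

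Sgk1, a kinase gene named for its induction by serum and glucocorticoids, stood out in the direction opposite to Fkbp5. Its product regulates ion channels and transporters and shares substrates with Akt. It was at 65.7, 79.4 and 82.2 CPM in the OVX libraries and 113, 93.1 and 115 CPM in the OVX+RJ libraries. All 3 OVX+RJ libraries were above all 3 OVX libraries, by 10.9 CPM at the nearest point. The means were 75.8 ± 8.87 and 107 ± 12.1 CPM (SD, n = 3 each), a fold change of 1.42 and a log2 fold change of 0.51 (SE 0.106, 95% interval 0.28 to 0.74). With each library left out in turn it was between 0.41 and 0.61.

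Sgk1 is shown with the DNA around its start sites because, of the 8 genes that could be searched, it alone had a full glucocorticoid response element there. The element searched, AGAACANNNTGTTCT, is a palindrome that reads the same on both strands. A single arm of it is AGAACA or its reverse complement, TGTTCT. RefSeq's table of promoters, on build GRCm38.p6 rather than the GRCm39 build of the counts, held 16 start sites for 8 of the 10 genes. Sgk1 had 6 of them and each other gene 1 to 3, so more sequence was searched at Sgk1. Nr3c1 and Zbtb16 had none listed and were not searched. In the 250 bases before each start site the full element was found in 3 of 32851 windows genome-wide, or 0.00913%. One of those windows belongs to Sgk1. The window is at chr10:21993640-21993889 (plus strand), the element fills positions -189 to -175 counted from that start, and it lies 965 bases before the next listed Sgk1 start. A single arm was in 4 of the 16 windows, 3 at Sgk1 and 1 at Tsc22d3, against 16.1% of all windows. The Sgk1 sequences follow, 5′ to 3′, with the element and its single arms in capitals, first the window with the full element and then 60 bases around the single arm before each of 2 other starts (chr10:21881962-21882021 and chr10:21992163-21992222, plus strand).
Sgk1 window with the full element: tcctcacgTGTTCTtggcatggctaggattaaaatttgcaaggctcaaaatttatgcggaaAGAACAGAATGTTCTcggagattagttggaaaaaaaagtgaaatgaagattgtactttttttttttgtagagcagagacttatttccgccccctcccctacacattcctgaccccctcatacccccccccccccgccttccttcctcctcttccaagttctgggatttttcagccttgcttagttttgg
Sgk1, the first listed start, single arm: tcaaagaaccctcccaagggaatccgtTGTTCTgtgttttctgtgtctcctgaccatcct
Sgk1, the fourth listed start, single arm: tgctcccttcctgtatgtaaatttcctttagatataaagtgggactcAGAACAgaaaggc
A match describes these letters and not binding, and the counts do not tell which start site was used. Fkbp5, Map3k6, Cdkn1a, Plin4, Hsd11b1 and Nr3c2 held neither the element nor an arm in their windows, which says nothing of elements farther away. All 250 bases of the Hsd11b1 window lay in annotated exons, as did 42 at Nr3c2, 21 at Plin4 and 3 in the first Cdkn1a window. So did 137 bases of the Tsc22d3 window with the arm.

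Zbtb16, which encodes the zinc finger transcription factor PLZF and is induced by glucocorticoids in many cells, was lower in OVX+RJ. It was at 90.8, 83.7 and 82.0 CPM in the OVX libraries and 59.3, 62.6 and 59.7 CPM in the OVX+RJ libraries. The lowest OVX library was 19.4 CPM above the highest OVX+RJ library. The means were 85.5 ± 4.66 and 60.5 ± 1.79 CPM (SD, n = 3 each), a fold change of 0.714 and a log2 fold change of -0.49 (SE 0.066, 95% interval -0.63 to -0.34). With each library left out in turn it was between -0.51 and -0.45. Zbtb16 had the second lowest p of all tested features, with an adjusted p of 0.121 from the edgeR fit, given here as a description.

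Map3k6, a stress-activated kinase gene of the ASK family, was also lower in OVX+RJ, on far fewer counts. The OVX libraries held 114, 200 and 153 counts of it, and the OVX+RJ libraries 72, 87 and 92, or 3.28, 3.44 and 3.75 against 1.87, 2.21 and 2.55 CPM. The groups did not overlap, and the log2 fold change was -0.65 (SE 0.201, 95% interval -1.09 to -0.21). The spread within OVX, 6.88%, was no larger than the 8.01% that counting alone gives, and in OVX+RJ it was 15.4% against 10.9%.

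Cdkn1a and Plin4 depended most on OVX+RJ 1. Cdkn1a encodes the cell cycle inhibitor p21, a target of both p53 and the glucocorticoid receptor, and was at 4.35, 3.77 and 3.56 CPM in the OVX libraries and 7.30, 4.95 and 5.21 CPM in the OVX+RJ libraries. The groups did not overlap, but OVX+RJ 1 lay well above the other libraries. The log2 fold change was 0.60 (SE 0.194) with all libraries and 0.39 without OVX+RJ 1. Plin4, which encodes a lipid droplet coat protein, was at 4.95, 6.17 and 5.96 CPM in the OVX libraries and 6.03, 2.06 and 2.22 CPM in the OVX+RJ libraries. OVX+RJ 1 matched the OVX libraries, while OVX+RJ 2 and 3 were far under all others. The coefficient of variation in OVX+RJ was 65.5%, where counting alone gives 8.74%. The log2 fold change was -0.71 (SE 0.347, 95% interval -1.47 to 0.049) with all libraries, -1.42 without OVX+RJ 1 and -0.44 without OVX+RJ 2.

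**Figure D3:**
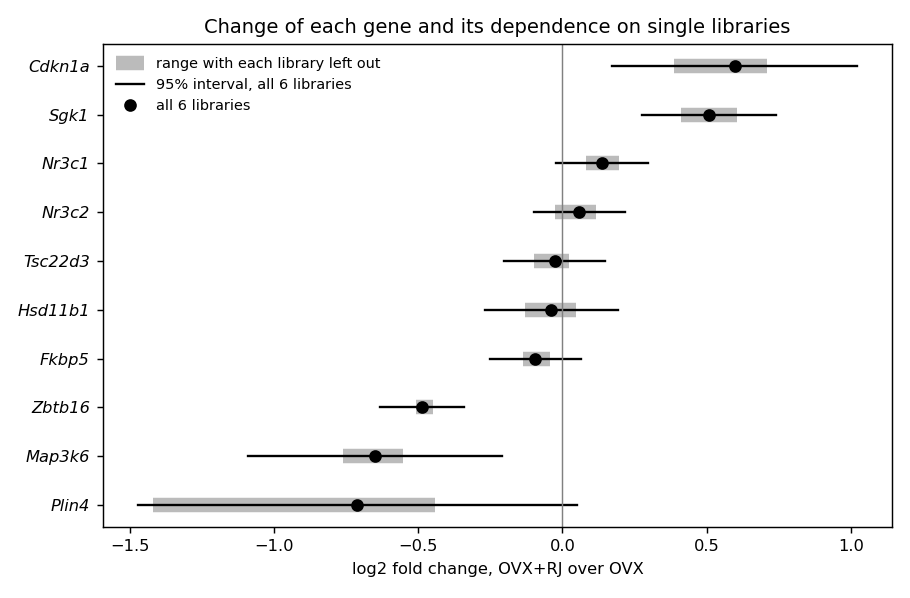
Log2 fold change of OVX+RJ over OVX for each gene (horizontal axis), with the 95% interval from all 6 libraries as a line and the range over left-out libraries as a grey bar. The grey bar of Zbtb16, from -0.51 to -0.45, is short, and that of Plin4 spans -1.42 to -0.44.

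The genes did not share one pattern over the libraries. Relative to the mean of the 6 libraries, on the log2 CPM scale with TMM factors, OVX+RJ 1 had the highest value of Nr3c2 (0.19), Hsd11b1 (0.16), Tsc22d3 (0.13) and Cdkn1a (0.66), and the lowest of Map3k6 (-0.52). It shared the highest value of Plin4 with OVX 2, at 0.57. OVX+RJ 3 had the lowest Nr3c2 (-0.09), Hsd11b1 (-0.20) and Fkbp5 (-0.15). OVX+RJ 1 and 3, which lay at opposite ends for Nr3c2 and Hsd11b1, had the same Sgk1 value, 0.36. Without OVX+RJ 1 the groups did not overlap at 8 of the 10 genes, with Nr3c1 higher and Tsc22d3 and Plin4 lower in addition, where 20.8% of all tested features did not overlap.

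**Figure D4:**
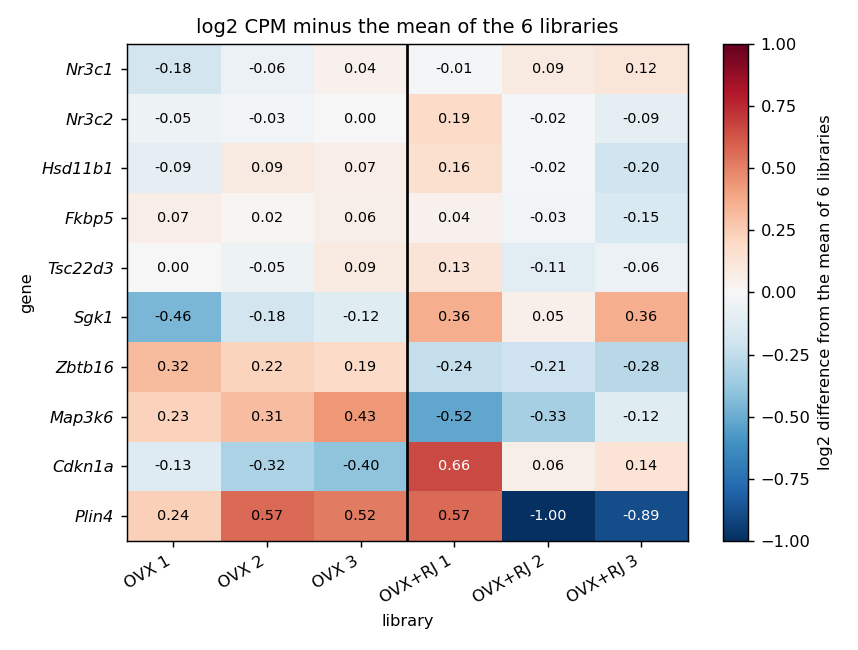
Log2 CPM of each gene (rows) in each library (columns) minus its mean over the 6 libraries, in red where above and blue where below that mean. Sgk1, Zbtb16, Map3k6 and Cdkn1a change colour at the line between the groups, while Plin4 in OVX+RJ 1 (0.57) has the colour of OVX.

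Genes near a member in pattern were sought among those with a mean of at least 10 CPM, leaving out pseudogenes and genes with Gm-number or Rik symbols. They were picked from 9691 or 9692 candidates for likeness over these same 6 libraries. A shared order of libraries therefore follows from that choice and is not a finding. The genes whose centred log2 CPM lay nearest to Sgk1 over the 6 libraries were Nr4a1, Zfp169 and Arc. Their root-mean-square differences were 0.068, 0.077 and 0.087, where Sgk1 itself varied by 0.295. Nr4a1 and Arc are genes that neurons induce on activity. Nr4a1 was at 41.1, 47.6 and 47.2 CPM in the OVX libraries and 73.7, 59.3 and 75.3 CPM in the OVX+RJ libraries. Nearest to Cdkn1a, which varied by 0.351, were Per1, Gadd45b and Tiparp, at 0.089, 0.092 and 0.095. Per1, a clock gene that glucocorticoids also induce, was at 118 CPM in OVX+RJ 1 and at 66.0 and 78.0 CPM in OVX+RJ 2 and 3, against 51.7 to 61.9 CPM in OVX. Nearest to Zbtb16, which varied by 0.247, were Fbxo27, Plekhh2 and Fcgrt, at 0.096, 0.101 and 0.109. Zbtb16 was in turn among the 3 genes nearest to Map3k6, at 0.178, after Etv6 at 0.159 and before Thbs4 at 0.179. Map3k6 itself varied by 0.348. Fkbp5, which varied by 0.077, lay nearest to Timm44, Cdc123 and Gpd1, at 0.023 to 0.024.

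No gene listed for its action with the receptors passed edgeR's test, and 0% of all 18629 tested features did. The counts of 0 called in the lists below are therefore not particular to those genes. Chaperones hold the receptors ready to bind hormone. Of 11 tested, 5 were higher and 6 lower in OVX+RJ by fitted log2 fold change, the median was -0.0099, and 0 were called in either direction. With each library left out in turn that median ran from -0.028 to 0.018, and was 0.0083 without OVX+RJ 1. The values ran from -0.080 for Hspa8 and -0.069 for St13 to 0.073 for Hsp90aa1 and 0.094 for Dnajb1, and Fkbp4, the cochaperone that Fkbp5 competes with, was at -0.062 (SE 0.060). Of 11 coregulators, through which the receptors activate or silence genes, 5 were positive and 6 negative, with a median of -0.015 and 0 called. Leaving out OVX+RJ 1 turned the median to 0.024, and leaving out OVX+RJ 3 gave -0.059. Smarca4, of the SWI/SNF remodelling complex, was at -0.101. The coactivator Ep300 and the corepressor Nrip1 were highest at 0.10 and 0.096. The 4 tested genes of corticosteroid supply and metabolism had a median of -0.14, with Srd5a1, which reduces steroids, at 0.0067, and the efflux pump gene Abcb1a at -0.15. The 4 genes of the corticotropin-releasing hormone system had a median of -0.061, with Crh at -0.16 (SE 0.287) and its receptor gene Crhr2 at 0.105 (SE 0.289). That median was 0.057 without OVX 3, -0.15 without OVX 1 and -0.015 without OVX+RJ 1.

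A further 24 tested genes known for induction by glucocorticoids went both ways, with 12 positive and 12 negative, a median of 0.014 and 0 called. At an unadjusted p under 0.05 there were 3 higher and 2 lower, out of 24, beside 4.05% of all features. Per1 (0.62, SE 0.173) and Dusp1, a phosphatase gene (0.54, SE 0.252), had the highest log2 fold changes, and Hif3a (-0.89, SE 0.268) and Angptl4 (-0.34, SE 0.317) the lowest. Dusp1 was at 24.1 CPM in OVX+RJ 1 and between 10.1 and 12.9 CPM in the other 5 libraries. Hif3a, which encodes a hypoxia-inducible factor subunit, was at 8.38, 6.21 and 7.29 CPM in the OVX libraries and 4.88, 4.47 and 2.24 CPM in the OVX+RJ libraries, without overlap. No gene of this list passed in edgeR's test, at a lowest adjusted p of 0.986, and 0% of all tested features did. The median was -0.048 without OVX+RJ 1, -0.026 without OVX 2 and 0.079 without OVX+RJ 2.

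Genes linked to single members were compared in the same way. Of 8 genes for Sgk1 substrates, activators and regulated channels, 4 were positive and 4 negative, with a median of -0.011, or 0.012 without OVX+RJ 1, and 0 called. Nedd4l, a ubiquitin ligase gene whose product Sgk1 phosphorylates, was highest at 0.199 (SE 0.126), and Foxo3, a transcription factor gene whose product Sgk1 also phosphorylates, lowest at -0.192 (SE 0.071). Of 10 p53 targets other than Cdkn1a, 8 were positive, with a median of 0.13 and 0 called, and the median was 0.059 without OVX+RJ 1. Pmaip1, which encodes a BH3-only protein, was at 3.43 CPM in OVX+RJ 1 and between 1.04 and 1.81 CPM in the other libraries. Of 13 paralogs of the 10 genes, 8 were positive, with a median of 0.035 and 0 called. The paralog median fell below 0 without OVX 1 (-0.044), OVX+RJ 2 (-0.021) or OVX+RJ 3 (-0.050). Plin5 was highest at 0.93 (SE 0.338), while Plin2 and Plin3 were at -0.034 and -0.065, and Sgk2 and Sgk3 were at 0.33 (SE 0.283) and 0.16 (SE 0.130).

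**Figure D5:**
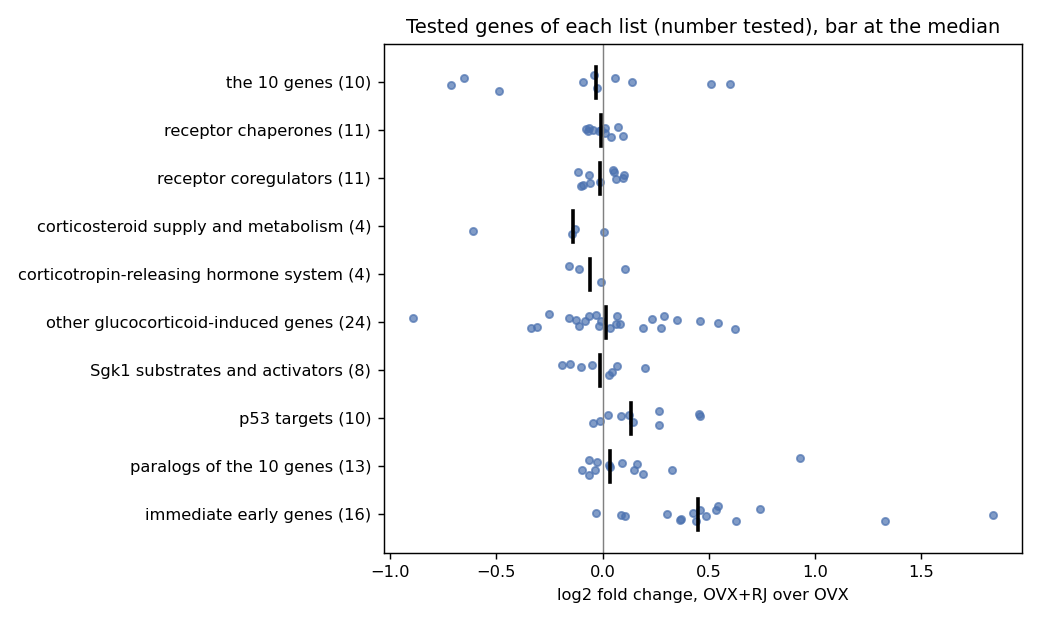
Log2 fold change of OVX+RJ over OVX (horizontal axis) for each tested gene of the 10 genes and of 9 lists (rows, number tested in brackets), with a bar at each median. The medians lie between -0.14 and 0.13 except that of immediate early genes, 0.45.

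Several other measures moved with the groups or with single libraries, and their part in the results above was not tested. Immediate early genes, which neurons transcribe on activity, had positive log2 fold changes in 15 of 16, with a median of 0.45, or 0.18 without OVX+RJ 1. In edgeR's quasi-likelihood test 0 of the 16 were called, as were 0% of all features. At an unadjusted p under 0.05 there were 8, all higher, beside 4.05% of all features. DESeq2 called 6 of them as higher (Junb, Fos, Egr2, Nr4a1, Egr1 and Arc), among 12 called of 27084 features. With robust empirical Bayes edgeR called Junb and Egr2, among 3 called of 18629. Without OVX+RJ 2 edgeR called Junb, Egr2, Nr4a1 and Fos, among 8 called of 19027. The mean centred log2 CPM of the 16 was -0.23, -0.34 and -0.18 in the OVX libraries, against 0.53, 0.00 and 0.22 in the OVX+RJ libraries. Sgk1 and Cdkn1a were likewise higher in OVX+RJ, and Cdkn1a, like that mean, was highest in OVX+RJ 1. Of the 13 cell type lists, 1 had summed levels that did not overlap, beside 10.5% of single tested features, so nothing is read from that count. It was pericyte and smooth muscle markers, at 192 to 204 CPM in OVX and 175 to 181 CPM in OVX+RJ. Of those 8 markers 6 had negative log2 fold changes, with a median of -0.19 and none at 0 counts. That direction, also that of Zbtb16 and Map3k6, was shared by other lists, with medians of -0.23 for dentate granule cell and -0.14 for blood markers. Oligodendrocyte markers summed to 3090, 5110 and 4330 CPM in OVX and to 3730, 4400 and 5020 CPM in OVX+RJ, overlapping between the groups. All 9 were detected, with positive log2 fold changes and a median of 0.086, or -0.097 without OVX 1. OVX 1 was the lowest library for both Sgk1 and these markers. OVX 2, the highest for these markers, was at 79.4 CPM of Sgk1, under every OVX+RJ library. Dentate granule cell markers were negative in 7 of 7, with sums of 461 to 607 CPM in OVX and 398 to 572 CPM in OVX+RJ. Choroid plexus markers had the highest median log2 fold change of the 13 lists, 0.43, with 7 of 8 positive and 3 at an unadjusted p under 0.05, and 0.62 without OVX+RJ 1. Their sums were 27.7, 39.0 and 33.0 CPM in the OVX libraries and 28.3, 48.9 and 57.0 CPM in the OVX+RJ libraries, overlapping through OVX+RJ 1. Ttr, the transthyretin gene and a defining marker of that tissue, was at 1.87, 8.49 and 6.43 CPM in the OVX libraries and 4.96, 14.4 and 23.2 CPM in the OVX+RJ libraries. Blood markers were negative in 5 of 5, with a median of -0.14 and sums of 65.2 to 79.6 CPM in OVX and 59.7 to 68.8 CPM in OVX+RJ. The summed levels of astrocyte markers were 4440 to 4870 and 4550 to 4780 CPM, those of microglia markers 295 to 307 and 288 to 304 CPM, and those of endothelial markers 164 CPM in each OVX library and 141 to 169 CPM in OVX+RJ. The hour of tissue collection is not given in the labels.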

How the data were processed

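The deposited table holds unscaled expected counts for each gene symbol in each library. Per the submitters' processing notes, build GRCm39, HISAT2 2.2.1, StringTie 2.2.1, fastp 0.23.4 and bcl2fastq 2.19 were used, in roles not named. Strand setting and annotation are not stated in the sources used here, so overlapping genes can share counts. Values at 51 features were not whole, and all were rounded. Columns were matched to samples by library name.

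Counts were fitted in R 4.3.3 with edgeR 4.0.16 (filterByExpr, TMM factors from 0.978 to 1.01, glmQLFit and glmQLFTest at installed defaults, Benjamini-Hochberg adjustment over 18629 features). Standard errors come from limma 3.58.1, moderated, on log2 CPM (prior count 2). Printed CPM use totals over all rows. DESeq2 1.42.0 and limma-voom were alternatives. Exon lengths came from GENCODE M21, another build, by symbol, as the union of all exons.

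The 10 genes and the gene lists were chosen with earlier results of these data known. All 10 were named, with the 3 nearest genes to each member whose groups did not overlap. The plan was to name the 2 highest and 2 lowest of each pathway list as examples. It was not followed in full, and for several lists some of those genes are not named. Other genes, such as Fkbp4, Sgk3 and Plin2, were added after their values were seen. Per the labels, each library is a biological replicate. The value of 1 listed gene is not reported here.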

Additional observations from a re-analysis of the deposited data

How the results depend on the processing

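Sgk1, Zbtb16, Map3k6, Cdkn1a, Plin4, Nr3c1 and Fkbp5 kept their direction under every alternative run. Sgk1 ranged from 0.41 to 0.61 and Zbtb16 from -0.51 to -0.45. DESeq2 called 12 of 27084 features and robust empirical Bayes in edgeR 3 of 18629, against 0 of 18629. Immediate early genes were 6 and 2 of these calls. Among the 10 genes these calls covered 2 in DESeq2, Zbtb16 (adjusted p of 7.77e-07) and Sgk1 (0.00636), and 1 with robust empirical Bayes, Zbtb16 (0.044). With libraries left out in turn, between 0 and 8 features were called, none of them among the 10 genes. The 8 came without OVX+RJ 2, and there was 1 without OVX 2, 2 without OVX 3 and 1 without OVX+RJ 1. The genes whose groups did not overlap numbered 5 to 8 with a library left out. They numbered 4 with TMM, DESeq2 or upper quartile scaling, where Fkbp5 overlapped. The highest number, 8 genes, came without OVX+RJ 1, where 20.8% of all tested features did not overlap, against 10.5% with all libraries. That share was not computed for the other settings, and nothing is read from the rise. The choice of test or filter plays no part in the number of genes without overlap, which uses only the levels. Signs turned for Nr3c2 (-0.026 without OVX+RJ 1, up to 0.115), Tsc22d3 (-0.099 to 0.024) and Hsd11b1 (-0.13 to 0.046). The difference in log2 receptor ratio ranged from -0.21 to 0.00037. With the replicate number as a block 1 feature was called, a predicted gene, and none of the 10. Deviations from the group mean correlated at 0.09, 0.00 and 0.15 between same-numbered libraries, and at -0.16 to 0.06 between differently numbered ones. With 3 libraries a group these values cannot decide whether the numbers pair them. The bias-adjusted form of the edgeR test and TMM scaling of the levels were added after seeing the data. The cause of these differences was not tested. Map3k6, Cdkn1a and Plin4 had 72 to 359 counts per library. Counting error alone gives a coefficient of variation of 10.9% for Map3k6 in OVX+RJ, where 15.4% was measured, while for Cdkn1a (22.1% against 6.72%) and Plin4 (65.5% against 8.74%) the spread between the OVX+RJ libraries exceeded it more than 3 times.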

Other observations

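Among genes of steroid metabolism, Akr1c14, which encodes a hydroxysteroid dehydrogenase that acts on reduced steroids, had 6 counts in OVX+RJ 1 and between 31 and 74 in each of the other 5 libraries. Its log2 fold change was -0.61 (SE 0.613). OVX+RJ 1 was thus the lowest library for Akr1c14 and the highest for Hsd11b1.

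Plin5 and Plin4, which encode coat proteins of lipid droplets, lay on opposite sides. The OVX libraries held 16, 28 and 19 counts of Plin5, and the OVX+RJ libraries 33, 27 and 41, or 0.461 to 0.481 against 0.686 to 1.14 CPM, without overlap, and a log2 fold change of 0.93. It did not pass in edgeR's quasi-likelihood test, at an adjusted p of 0.986. The difference between Plin4 and Plin5 was not tested.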
